A study of Drosophila melanogaster with 5 samples.

Results

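The Skp family of Drosophila melanogaster holds 6 genes, SkpA, SkpB, SkpC, SkpD, SkpE and SkpF, which were taken by their symbols from a table of 14094 genes measured in adult ovaries. The family was singled out because of the level of SkpE in a BEAF-32 knockout, so the difference between genotypes in these 6 genes chose them and is described here without a test. RNA came from whole ovaries dissected 1 to 3 days after eclosion. The 2 knockout libraries carry the genotype BEAF 32-AB KO. The 3 control libraries are labelled as wild type and carry nosGAL4, a transgene that drives the GAL4 activator in the germline, with the balancer chromosomes MKRS and TM6. The knockout label names neither the driver nor the balancers, so the altered insulator gene and other differences between the stocks cannot be told apart. The labels also do not say whether each library had its own flies, so p-values measure only the spread between these libraries, which may be technical.

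Skp1-type proteins are the adaptors of SCF ubiquitin ligases. The adaptor binds both the cullin Cul1 and the F-box motif of a substrate receptor, and so links to the ligase the receptor that picks the proteins marked for destruction. The cullin is switched on by attachment of the ubiquitin-like protein Nedd8 and switched off when the COP9 signalosome removes it. SkpA is the widely used fly adaptor, needed for the control of endoreplication, centrosome duplication and chromatin condensation. The other family members are much less studied. BEAF-32, the protein whose gene is named in the knockout genotype, is a boundary factor of insulators and occupies many gene starts.

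Levels are given as CPM, a gene's count scaled to a library total of 1000000. Total counts were 38820176 and 47805964 in the knockout libraries, 41105107 in control 1, and only 8448850 and 10388643 in controls 2 and 3, which makes a level from 3 counts 0.0628 to 0.355 CPM. BEAF-32 itself had 50.2 and 52.8 CPM in knockout libraries and 84.9, 136 and 144 CPM in the control (log2 fold change -1.19, SE 0.26, adjusted p = 0.0157). Adjusted p-values here are from the quasi-likelihood test of edgeR, with the Benjamini-Hochberg method over all tested genes. The call is lost when knockout 1 is left out (adjusted p = 0.107) and likewise for knockout 2 (0.126). The label does not say which part of the gene was altered, so its remaining transcript checks nothing. Of 9241 genes with enough counts to be tested, 41.5% were called at an adjusted p under 0.05, 22.7% higher and 18.7% lower in the knockout, with a median log2 fold change of 0.11. Controls 2 and 3 form a shallow class with no knockout library, so values are also given within the deep class, where control 1 is the only control, and with depth class as a term. Such a term leaves control 1 as the only control behind the genotype difference too, so these are not separate checks.

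SkpE (FBgn0031074, chromosome X, 19823368 to 19824080, minus strand, dm6) had no count in any control library. It had 384 counts in knockout 1 and 919 in knockout 2, or 9.89 and 19.2 CPM. The groups did not overlap, and control 1, without a single SkpE read, had a total count between those of the knockout libraries. A mean of 14.6 ± 6.60 CPM (SD, n = 2) is at least 291-fold higher in the knockout than a floor of 3 counts over the control group, which is 0.05 CPM. The 2 knockout libraries taken singly gave at least 198-fold and at least 384-fold. The fitted log2 fold change of 11.74 (SE 0.90) rests on the small count added before the logarithm and fell to 7.74 with a larger one, so it is no measure of size.

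Silence in the control was common. The level of SkpE chose the family, so its place among the silent genes is a description only. Of the genes in the table, 3625 (25.7%) had 0 counts in all 3 controls, and 2093 of these had none in the knockout either. A further 650 had counts in both knockout libraries. With the lower knockout value of SkpE as the cut, 4 genes, SkpE included, were at 9.89 CPM or more in both. The rest, named after their values were seen, were RpL22-like, a paralog of a ribosomal protein gene (36.6 and 56.7 CPM), CG43739 (35.4 and 46.9 CPM) and CG43843 (11.1 and 12.7 CPM). SkpE was lower than RpL22-like and CG43739 in both knockout libraries, and RpL22-like, CG43739 and CG43843 lie on chromosomes 2R, 2L and X in that order. By mean knockout level SkpE ranked 4 among the genes at 0 in the controls, since a gene below the cut in a knockout library had a higher mean.

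SkpC (FBgn0026175, chromosome X, 19816072 to 19816700, plus strand) was the member with the largest gain in reads. It had 1805 and 3427 counts in the knockout and 5, 3 and 9 in the control. These are 46.5 and 71.7 CPM against 0.122, 0.355 and 0.866 CPM. The lowest knockout library was 53.7 times the highest control, and the groups did not overlap. Group means were 59.1 ± 17.8 CPM (SD, n = 2) and 0.448 ± 0.381 CPM (SD, n = 3), a log2 fold change of 7.45 (SE 0.65). From pooled reads the knockout was 213 times the control, with an exact interval of 133 to 366 at 95% that covers counting error only. Pooling gives the most weight to control 1, the deepest control and the lowest in SkpC, and the ratio of mean CPM was 132. The size of the difference depends on which control is used. It was 8.78 within the deep class, 8.88 with depth class as a term, 6.57 without control 1 and 8.34 without control 3.

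SkpB (FBgn0026176, chromosome 2R, 12139295 to 12140229, minus strand) was also higher in both knockout libraries, but from a low level. Its 109 and 195 counts in the knockout equal 2.81 and 4.08 CPM. In the control it was at 0.341, 1.54 and 1.06 CPM, from 14, 13 and 11 counts. The lowest knockout library was 1.82 times the highest control, so the groups did not overlap, yet the spread among controls was wide. The exact intervals of controls 1 and 2, 0.186 to 0.571 and 0.819 to 2.63 CPM, did not overlap each other. The log2 fold change was 1.93 (SE 0.73), 3.22 within the deep class, 3.33 with depth class as a term and 1.46 without control 1. A stretch of 30 bases at the 3′ end of SkpB overlaps an exon of CG18343 on the other strand. The kit is directional but the strand setting of the counting is not given in the sources used here, so reads in that stretch may be shared.

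SkpA (FBgn0025637, chromosome X, 656114 to 657899, plus strand) was at nearly the same level in all libraries. Its knockout values were 298 and 265 CPM and its control values 288, 288 and 276 CPM. The knockout libraries lay above and below all 3 controls. The log2 fold change was 0.04 (SE 0.17), and -0.13 within the deep class. Its coefficient of variation over the 5 libraries was 4.46%, against a median of 39.8% over the tested genes. Only 0.195% of tested genes had a lower one. These genes were not matched for level, and SkpA ranked 542 among them by mean CPM. This stability of level was seen in a comparison in which 41.5% of tested genes were called.

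SkpD (FBgn0026174, chromosome X, 19812729 to 19813384, plus strand) had 3 counts in knockout 1 and 0 in the other 4 libraries. That single value of 0.0773 CPM has an exact counting interval of 0.0159 to 0.226 CPM and cannot be set apart from 0 counts at this depth. SkpF (FBgn0034863, chromosome 2R, 23458065 to 23458759, minus strand) had 0 counts in all 5 libraries, which in the deepest library allows up to 3 counts, or 0.0628 CPM (exact upper limit 0.0772 CPM). SkpF lies within an intron of CG43795, a gene on the other strand with 10 and 9 counts in the knockout and 0 in the controls. These 2 members were too low to be tested, so 4 of the 6 passed the filter on low counts. Of those 4, SkpB, SkpC and SkpE had knockout libraries that lay above all controls, while SkpA overlapped. Over all tested genes the groups did not overlap for 68.1%, with 37.6% higher and 30.5% lower in the knockout. Since the family was chosen by this contrast, nothing is read from the members' count.

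**Figure D1:**
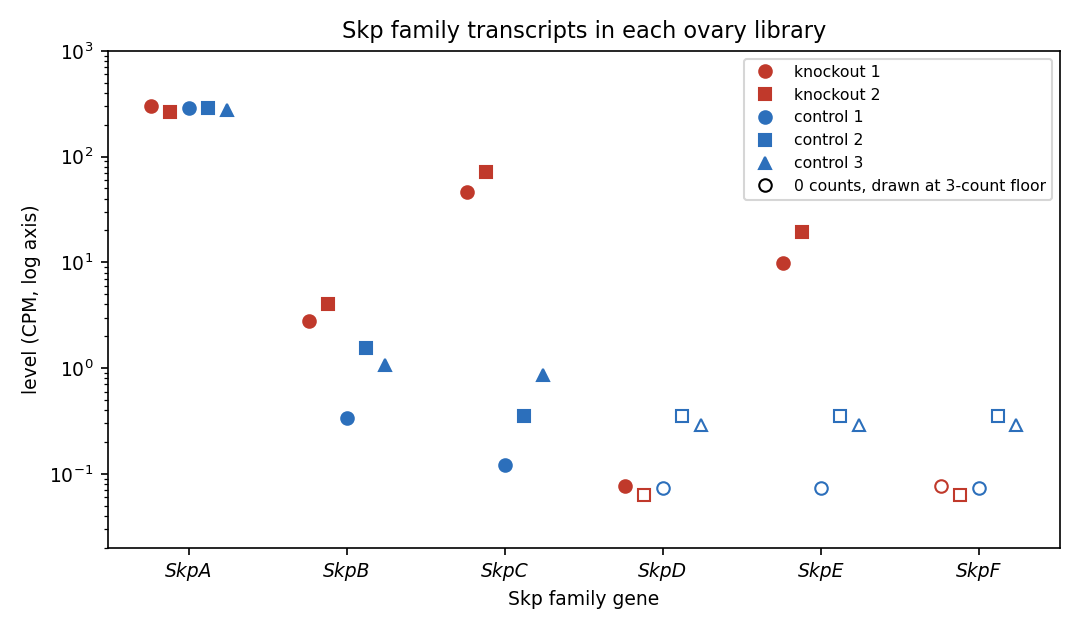
Level of each Skp gene (CPM, log axis) in each of the 5 libraries, with knockout in red and control in blue and open symbols for 0 counts drawn at the level of 3 counts. SkpA stays between 265 and 298 CPM in all libraries, whereas SkpC and SkpE lie at 9.89 CPM or more in the knockout and at 0.866 CPM or less in the control.

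The make-up of the family therefore differed between the genotypes. In the controls SkpA took 99.3% to 99.8% of the family's counts. In the knockout it took 83.4% and 73.6%, while SkpC took 13.0% and 19.9%, and SkpE took 2.77% and 5.33%. The summed family level was 357 and 360 CPM in knockout libraries against 289, 290 and 278 CPM. The members other than SkpA made up 16.6% and 26.4% of it in the knockout and at most 0.694% in the control.

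Members differ in length, so levels of different genes were compared per kilobase of annotated exon. SkpA has 9 annotated transcripts of 826 to 1544 bases whose exons together cover 1786 bases. SkpB, SkpC, SkpD, SkpE and SkpF have 1 transcript each, of 877, 629, 656, 713 and 695 bases, and a coding part of 486, 477, 477, 504 and 516 bases with the stop codon, against 489 in SkpA. On this scale SkpC was at 73.9 and 114 CPM per kilobase in the knockout, SkpE at 13.9 and 27.0, SkpB at 3.20 and 4.65, and SkpA at 167 and 149. The order SkpA, SkpC, SkpE, SkpB was the same in both knockout libraries. In the controls SkpA was at 154 to 161 CPM per kilobase, SkpB at 0.388 to 1.75 and SkpC at 0.193 to 1.38, so that SkpB and SkpC did not differ beyond their spread. Members other than SkpA made up 35.3% and 49.5% of the family level per kilobase in the knockout and 0.359% to 1.65% in the control. Using the shortest SkpA transcript instead, they made up 20.2% and 31.2%, against 0.167% to 0.769%.

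The knockout libraries also differed from each other. SkpE was 1.94 times as high in knockout 2 as in knockout 1, SkpC 1.54 times and SkpB 1.45 times, while SkpA was 0.891 times as high. Over 9146 tested genes with counts in both knockout libraries the median log2 ratio was 0.12, and only 2.56% of them had a higher ratio than SkpE, 5.93% than SkpC and 7.94% than SkpB. For each 100 reads of SkpC there were 21.3 reads of SkpE in knockout 1 and 26.8 in knockout 2.

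SkpD, SkpC and SkpE are neighbours. They lie within 11352 bases of chromosome X, with no other gene of the table between them and 4 annotated transposon copies. SkpD and SkpC are on the plus strand, 2687 bases apart, and SkpE faces them from the minus strand 6667 bases further on. Of this group, SkpC and SkpE were the ones with reads in the knockout, and SkpD, the member next to SkpC, stayed at or below 3 counts. SkpA lies on the same chromosome but 19154830 bases away, and SkpB and SkpF lie on chromosome 2R.

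The genes flanking the group were expressed in both genotypes. The nearest on the higher side, pico, which codes for an adaptor that links receptors to the actin cytoskeleton, had 183 and 209 CPM in the knockout against 285, 233 and 262 CPM, so the groups did not overlap, but was not called (log2 fold change -0.37, SE 0.18, adjusted p = 0.147). Within the deep class it was called lower (-0.64, adjusted p = 0.00421), as it was when depth class entered as a term (-0.53, adjusted p = 0.0147). The next genes, Nup205, a nuclear pore subunit (0.28, SE 0.23, adjusted p = 0.362), and THADA (0.89, SE 0.32, adjusted p = 0.0697), were not called, though both were called higher without control 1 (0.47, adjusted p = 0.00734, and 1.23, adjusted p = 0.000242), and THADA by DESeq2 (adjusted p = 0.0475) and with the replicate number as a block (adjusted p = 0.0321). On the lower side the nearest gene beyond SkpD was zld, which codes for the maternally supplied activator Zelda. It fell from 376, 208 and 227 CPM in the control to 37.7 and 39.2 CPM (-2.78, SE 0.34, adjusted p = 0.00261), so the groups did not overlap. Within 100000 bases on either side of the group, 15 non-family genes were tested, of which 5 were called higher and 2 lower, or 46.7% against 41.5% of all tested genes, with a median log2 fold change of 0.31 against 0.11. Among genes within 5000 bases of the other members, Smyd4-4 beside SkpB fell (-0.74, SE 0.15, adjusted p = 0.0118, but 0.106 without knockout 1 and 0.142 without knockout 2). Not called were CG18343 beside SkpB (0.45, SE 0.21, adjusted p = 0.138) and Hmt4-20, a histone H4 methyltransferase gene that starts 81 bases from SkpA (-0.60, SE 0.25, adjusted p = 0.104). For Hmt4-20 a lower level was called within the deep class (-1.06, adjusted p = 0.000743), with a depth term (-0.94, adjusted p = 0.00181) and without control 1 (-0.40, adjusted p = 0.0313).

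**Figure D2:**
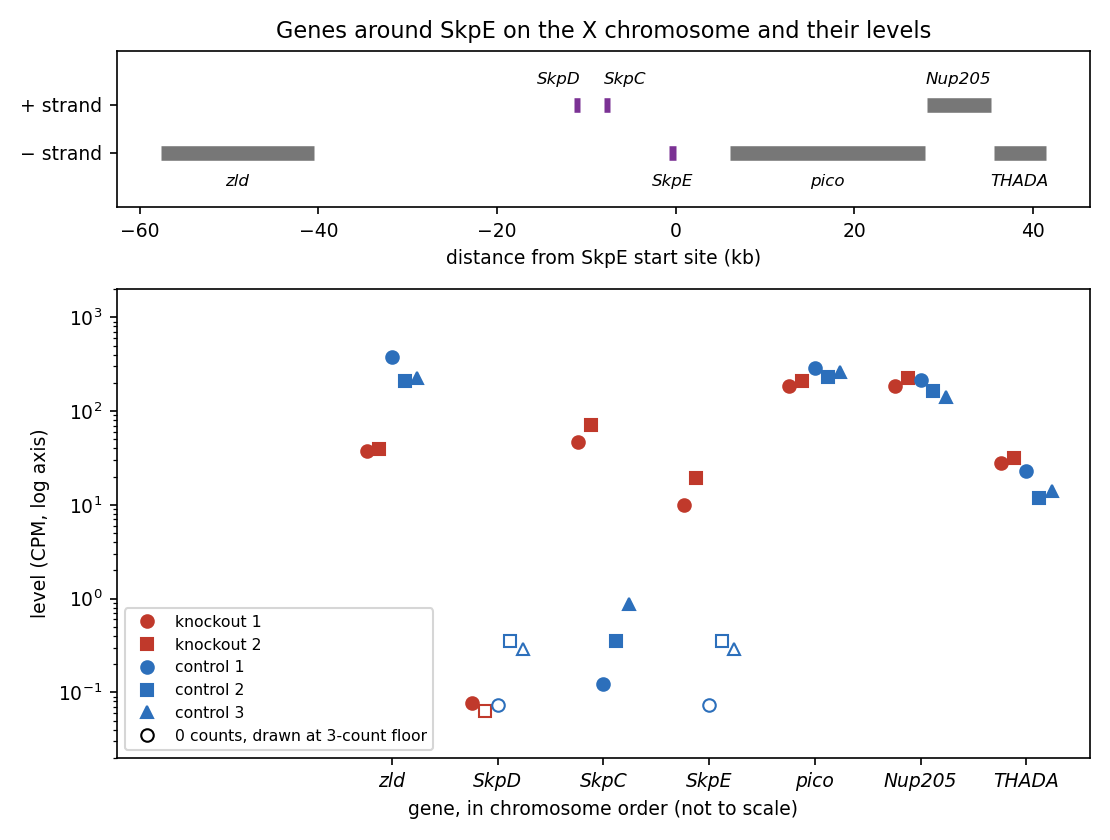
Top, genes around SkpE on chromosome X by distance from its start site in kilobases and by strand, with Skp genes in purple. Bottom, level of each gene (CPM, log axis) in each library, showing SkpC and SkpE at 9.89 CPM or more in the knockout only, between flanking genes that are expressed in both genotypes.

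The tested genes with the profile closest to SkpE over the 5 libraries were found by the root mean square difference of centred log2(CPM + 0.5) values. They were CG12477 (difference 0.091), Hasp (0.205), CG18605 (0.206), ATPsynepsilonL (0.213) and CG43843 (0.256). CG12477, the closest, was at 11.6 and 21.9 CPM in the knockout and had 1, 0 and 0 counts in the control. ATPsynepsilonL, a paralog of an ATP synthase subunit gene, was at 14.2 and 26.0 CPM in the knockout, with 2, 0 and 0 counts in the control. These genes lie on chromosomes 3L, 2L, 2R, 3R and X. SkpC, at a difference of 0.69, was the closest family member, with 95 other tested genes closer to SkpE than it. For genes near 0 in the control, this measure depends on the knockout level. That level was 46.5 and 71.7 CPM for SkpC and 9.89 and 19.2 CPM for SkpE.

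The partners of the Skp adaptors were examined next, with their differences tested over all 9241 genes. Of 23 genes of the SCF core, the Nedd8 cycle and the COP9 signalosome, 21 were tested. Of these 4 (19.0%) fell and 0 rose, and 17 were not called, against 41.5% of all tested genes called. The median log2 fold change was -0.18. Cul1, the scaffold that binds the Skp adaptor, had 527, 638 and 626 CPM in the control libraries and 241 and 244 CPM in the knockout. The groups did not overlap, and the transcript fell (-1.25, SE 0.17, adjusted p = 0.00377). The other genes that fell were Cks30A, a Cdk-binding protein known from female meiosis (-1.72, SE 0.27, adjusted p = 0.00571), SCCRO4, which promotes Nedd8 attachment (-0.66, SE 0.15, adjusted p = 0.0191), and Uba3, a subunit of the Nedd8-activating enzyme (-0.74, SE 0.20, adjusted p = 0.0291). Roc1a, the RING subunit that recruits the ubiquitin-conjugating enzyme, was at 141 and 154 CPM and 107, 136 and 144 CPM (0.24, SE 0.18, adjusted p = 0.331), and was called higher within the deep class (0.37, adjusted p = 0.0262) and with a depth term (0.48, adjusted p = 0.0147). For Cand1, which exchanges adaptors on Cul1, no difference was called (0.51, SE 0.18, adjusted p = 0.0664), but DESeq2 called it higher (adjusted p = 0.0238), as did edgeR without control 1 (adjusted p = 0.000919).

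Without either knockout library the other one stands alone and the spread comes from the 3 controls, so calls over all genes dropped to 878 and 1031 from 3831. Of this list 11 were called without control 1, 10 lower and 1 higher. In that setting 6083 of all 8870 tested genes were called, so calls rose over all genes too. Cul1 was not called without knockout 2 (-1.20, adjusted p = 0.0573), nor Cks30A without knockout 1 (-1.60, adjusted p = 0.0731). SCCRO4 was called in neither case (-0.74 and -0.63, adjusted p = 0.137 and 0.170). Nor was Uba3 (-0.62 and -0.92, adjusted p = 0.218 and 0.104), which was also lost without control 2 or 3 (-0.88 and -0.85, adjusted p = 0.0501 and 0.0529).

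Of 23 F-box genes, which code for the substrate receptors that Skp adaptors carry, all were tested. Of these 7 fell, 4 rose and 12 were not called, so 47.8% were called against 41.5% of all tested genes, and the median log2 fold change was -0.31. The receptors that fell included ago, known for the destruction of Cyclin E, with 480, 471 and 491 CPM in the control libraries and 192 and 208 CPM in the knockout ones (-1.22, SE 0.16, adjusted p = 0.003). CG4911 fell as well (-1.60, SE 0.21, adjusted p = 0.00295). The receptor slmb, known for the processing of Ci and the destruction of Armadillo, was named after its values were seen and also fell (-0.99, SE 0.18, adjusted p = 0.00844). Ppa, which targets the Paired protein, rose from 5.08, 4.85 and 4.91 CPM to 32.7 and 27.0 CPM (2.64, SE 0.22, adjusted p = 0.000904). CG11658 (1.82, SE 0.26, adjusted p = 0.00391) and, named after their values were seen, Fbxl7 (4.42, SE 0.64, adjusted p = 0.00441) and FipoQ (4.47, SE 0.91, adjusted p = 0.0127) rose too. Kdm2, a chromatin protein with an F-box, was not called (0.69, SE 0.23, adjusted p = 0.0538), nor was Skp2 (-0.42, SE 0.23, adjusted p = 0.181). Kdm2 was called higher without control 1 (adjusted p = 8.89e-05) and by DESeq2 (adjusted p = 0.028), and Skp2 lower within the deep class (-0.82, adjusted p = 0.000671) and with a depth term (-0.71, adjusted p = 0.00769). Without knockout 1 the list had 2 calls and without knockout 2 it had 5. The calls of slmb (-1.08 and -0.95, adjusted p = 0.0767 and 0.0994), Fbxl7 (4.35 and 4.57, adjusted p = 0.0731 and 0.0583) and FipoQ (4.49 and 4.38, adjusted p = 0.108 and 0.112) were lost without either. Those of ago (-1.28, adjusted p = 0.0514) and CG11658 (1.75, adjusted p = 0.0535) were lost without knockout 1.

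Of 10 genes whose proteins are known SCF substrates, 3 rose, 1 fell and 6 were not called, so 40.0% were called against 41.5% of all tested genes, with a median log2 fold change of 0.24. CycE, the cyclin that drives entry into S phase, fell from 286, 298 and 293 CPM to 87.2 CPM in knockout 1 and 100 CPM in knockout 2 (-1.60, SE 0.16, adjusted p = 0.00141). The Hedgehog pathway effector ci rose from 25.0, 8.05 and 8.95 CPM to 176 and 186 CPM (3.69, SE 0.53, adjusted p = 0.00432). The circadian genes tim (1.93, SE 0.20, adjusted p = 0.00154) and per (2.83, SE 0.50, adjusted p = 0.00818) rose, though per was not called without knockout 1 or 2 (2.61 and 3.01, adjusted p = 0.0839 and 0.0514). The beta-catenin gene arm had 536 and 584 CPM against 474, 484 and 463 CPM, a difference not called by edgeR (0.28, SE 0.15, adjusted p = 0.173). DESeq2 called arm higher (adjusted p = 0.0119), as did edgeR without control 1 (0.29, adjusted p = 0.0478). Myc was not called (0.20, SE 0.18, adjusted p = 0.399). The list had 7 calls without control 1, 5 higher and 2 lower, in a setting where 6083 of all 8870 tested genes were called. These are transcript levels, and protein stability, on which SCF ligases act, was not measured.

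**Figure D3:**
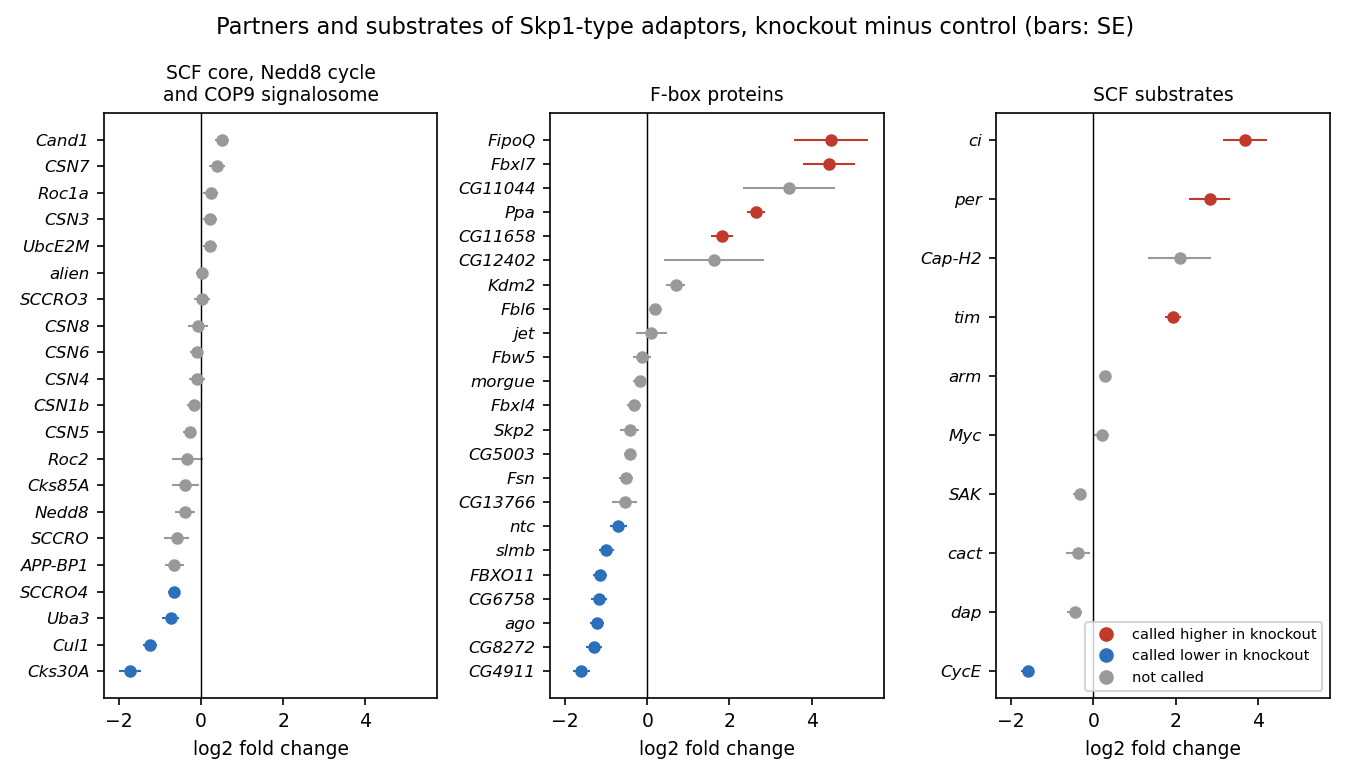
Log2 fold change, knockout minus control, with its SE for each tested gene of the SCF core, Nedd8 cycle and COP9 signalosome list, the F-box list and the substrate list. Red and blue points were called higher and lower at an adjusted p under 0.05 (edgeR), and most genes of the first list, in grey, lie close to 0, with Cul1 and Cks30A the lowest.

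Markers of several cell types differed between the genotypes along with the Skp genes. In bulk RNA, fewer cells of a type and less RNA per cell cannot be told apart. The defining germline genes vas, osk and orb were present in all libraries at 265 CPM or more. Even so, vas was called lower (-0.74, adjusted p = 0.0154 by edgeR). The germline list summed to 2828 and 3273.4 CPM in knockout libraries against 3846.6 to 5252.4 CPM, with 3 of 12 genes higher and 5 lower. The lower ones included bam, otu and nos, the last falling from 419, 503 and 503 CPM to 35.0 and 50.9 CPM. Among the higher ones, bgcn rose from 0.681, 0 and 0.0963 CPM to 11.7 and 23.8 CPM. The follicle cell list summed to 1221 and 1196 CPM and to 6419 to 9527.7 CPM. Its members split, with 6 of 12 higher, among them tj at 248 and 284 against 127 to 152 CPM, and 5 lower, among them the eggshell gene Cp36 at 0.386 and 1.42 against 1655 to 4502.5 CPM. The muscle list summed to 4682.4 and 4673.5 CPM against 387 to 735 CPM, with 8 of 9 genes higher. Fat body markers summed to 171 and 108 CPM against 32.1 to 52.8 CPM, hemocyte markers to 342 and 345 against 97.1 to 117, and neuron markers to 21.5 in both against 5.89 to 8.76. Single genes made up most of these knockout sums, namely apolpp (124 and 94.2 CPM), Pxn (192 and 226) with srp (141 and 111), and elav (19.9 and 19.6). The neuron genes brp and Syt1 had lower means in the knockout (0.163 against 1.16 and 0.0652 against 0.24 CPM). Spermatheca and oviduct markers summed to 57.5 and 55.0 CPM against 92.6 to 113. Gut markers summed to 1.67 and 1.84 CPM in the knockout and to 101, 10.1 and 0.481 CPM in controls 1, 2 and 3. The gut gene Jon65Aiv had 1664, 0 and 0 counts in these controls. Control 1 is the only control behind the values within the deep class and with a depth term, and the effect of its gut reads was not tested. Among tested genes, 1 of 4 fat body, 2 of 4 hemocyte and 1 of 4 neuron markers were called higher, and none of these lists had one called lower. For all marker lists here, the shares over all tested genes were 22.7% called higher and 18.7% called lower. Of 4 tested spermatheca and oviduct markers 1 was higher and 2 were lower, and of 5 gut markers 1 was lower. The hemocyte gene He and the spermatheca genes Send1 and Send2 were at 0 in all controls. In the knockout Send1, the spermatheca marker called higher, had 532 and 233 counts, or 13.7 and 4.87 CPM. That is at least 186-fold higher than the floor of the controls (adjusted p = 0.00723 by edgeR). Send2 had 5 and 1 counts in the knockout, and He had 0 and 1. The part of these shifts in the levels of SkpB, SkpC and SkpE was not tested.

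Of 42 testis genes in the table, 26 were at 0 in all controls, and 11 of these were at 0 in the knockout as well, among them dj, ProtA, nht and the Y-linked kl-2, kl-3 and kl-5. In the knockout 31 had a count in at least 1 library and 20 in both. The other 15 genes at 0 in the controls had counts in the knockout, 10 of them in knockout 1 only and 5 in both libraries, at no more than 0.613 CPM. The tubulin gene betaTub85D, specific to the male germline, was at 0.438 and 0.502 CPM in the knockout, against control values of 0.122, 0 and 0.385 CPM, a difference that was not called (1.52, SE 1.09, adjusted p = 0.301). The list summed to 63.8 and 73.2 CPM in knockout libraries against 37.2 to 42.2 CPM, and of 11 tested genes 3 rose and 0 fell, so 27.3% were called against 41.5% of all tested genes. These were achi, which is also expressed in the ovary (1.04, SE 0.23, adjusted p = 0.0163), mia (2.76, SE 0.61, adjusted p = 0.0167) and aly, at 0.412 and 0.293 CPM, at least 7.04-fold higher than the floor of the controls (adjusted p = 0.0473, but 0.118 by DESeq2). The most abundant uncalled ones were bol (0.68, SE 0.36, adjusted p = 0.177) and janB (-0.96, SE 0.43, adjusted p = 0.124), which without control 1 were called higher (1.05, adjusted p = 0.00405) and lower (-1.27, adjusted p = 0.00168). Without control 1, 6083 of all 8870 tested genes were called. The list had 7 calls without control 1, 1 without control 2, 1 without control 3 and 0 without knockout 1 or knockout 2.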

How the data were processed

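Directional RNA-seq libraries were made from Trizol-extracted total RNA of dissected ovaries, per the labels' protocols. FastQC 0.11.8, Trim Galore 0.6.6, STAR 2.7.5b, Salmon 1.2.1 and the dm6 build are named in the submitters' processing notes, and the annotation and settings are not given in the sources used here. The authors deposited estimated counts per gene for 5 libraries, not scaled. All 30 values of the 6 Skp genes were whole to within 0.0015, against 3.33% to 4.58% of all values per library that were not. The series design speaks of duplicates, while 3 control libraries are labelled and were used.

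The members and gene lists were chosen with earlier results of these data known. Annotation was Ensembl 115 on dm6 coordinates, which matched 14048 of 14094 genes (99.7%). CPM values use column totals. Counts were rounded, filtered with filterByExpr, scaled by TMM (0.941 to 1.03) and fitted with edgeR 4.0.16 (robust quasi-likelihood, R 4.3.3) without covariates, with Benjamini-Hochberg adjustment over 9241 genes. The alternatives included DESeq2 1.42.0 and limma 3.58.1. Each SE was obtained from the fitted fold change and its F statistic. Intervals and floors of 3 counts cover counting error only. With 2 against 3 libraries an exact permutation test cannot give a p under 0.1, so none was run. No libraries were duplicates (chi-square per degree of freedom at least 12.5). The model was tested on simulated counts.

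Named genes were the 6 members, BEAF-32, up to 4 called genes of smallest p and 2 uncalled genes of highest CPM per list, the nearest neighbours of the members, and the 5 closest profiles to SkpE. No sequence is printed, since none was used here.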

Additional observations from a re-analysis of the deposited data

How the results depend on the processing

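Of the values set out above, those of the Skp genes kept their sign under every alternative except SkpA, which lay between -0.16 and 0.17 with 1 library left out and at -0.13 within the deep class. SkpC was at 8.78 within the deep class, 8.88 with depth class as a term and 8.25 with the replicate block, and between 6.57 and 8.34 with 1 library left out. SkpB was at 3.22 and 3.33 in the first 2 of these, and between 1.46 and 2.37 with 1 library left out. The fitted SkpE value was 10.26 with DESeq2, 8.80 with limma-voom and 7.74 with a prior count of 2, and between 10.99 and 11.96 with 1 library left out. With 1 library left out, all called genes ran from 878 to 6083 (3831 with all), the SCF core list from 1 to 11, the F-box list from 2 to 14, the substrate list from 3 to 7, the other cullin list from 4 to 14 and the testis list from 0 to 7. Within the deep class 5949 genes were called, with 8 of the SCF core, 8 of the substrate and 6 of the testis list, but its error comes from the 2 knockout libraries only. The substrate list had 7 calls with DESeq2 and 7 with depth class as a term. The causes were not tested. The labels do not say whether shared replicate numbers mark pairs. Deviations correlated at 0.058 and 0.047 for the 2 pairs. With 2 knockout libraries the deviations mirror each other, so these values cannot decide the question. The replicate block gave 3261 calls, 3 of them in the SCF core list, 10 in the F-box list, 8 in the other cullin list and 2 in the testis list. With the block, SCCRO4 (adjusted p = 0.0884) and aly (adjusted p = 0.133) were not called, and THADA was called higher (adjusted p = 0.0321). No named gene that was called changed sign. Dropping the filter moved the median of all genes by 0.16. Depth limits SkpD and SkpF, where the shallow controls cannot show levels under 0.289 to 0.355 CPM.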

Other observations

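The other cullin ligases use their own adaptors in place of Skp proteins. Of 18 listed genes 17 were tested, of which 7 fell, 3 rose and 7 were not called, so 58.8% were called against 41.5% of all tested genes, with a median log2 fold change of -0.28. The Cul3 adaptor rdx, known for the turnover of Ci, fell from 1097.9, 1568 and 1640.4 CPM in the control to 240 and 257 CPM in the knockout (-2.48, SE 0.24, adjusted p = 0.00122 by edgeR). The elongin subunit EloA (-2.16, SE 0.16, adjusted p = 0.000705) and l(2)dtl, a Cul4 receptor that acts in S phase (-1.48, SE 0.16, adjusted p = 0.00179), fell as well. Socs36E, a receptor of the Cul5 type and a known target of JAK-STAT signalling, rose from 6.13, 5.33 and 4.33 CPM to 98.1 and 108 CPM (4.31, SE 0.20, adjusted p = 0.000331). The scaffold Cul3 (0.73, SE 0.25, adjusted p = 0.0636) and Socs16D (-0.49, SE 0.17, adjusted p = 0.0591) were not called by edgeR, but both were called by DESeq2 (adjusted p = 0.0326 and 0.00447) and without control 1 (0.98, adjusted p = 7.69e-05, and -0.44, adjusted p = 0.00799). The list had 4 calls without knockout 1 and 5 without knockout 2.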
